A study of Mus musculus with 12 samples.

Results

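The nuclear-encoded genes of the mitochondrial respiratory chain and of ATP synthase were followed by RNA sequencing in 12 mouse kidneys. Symbols beginning with Nduf, Uqcr or Atp5, the Sdh subunits a to d, the Cox4 to Cox8 genes and Cyc1 gave 93 genes of the 23420 in the count table. Of these, 69 had a mean of at least 1 CPM (counts per 1000000, a gene's count scaled to the total of its kidney) over the 12 kidneys, out of 10429 genes at that level in the whole table. These 69 members were 65 subunits, 26 of complex I, 4 of complex II, 9 of complex III, 11 of complex IV and 15 of complex V, and 4 Ndufaf genes, whose products help to build complex I. Ndufa4 was counted in complex IV, where its product is now placed.

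The kidneys came from young adult male C57BL/6J mice without any genetic change. 4 were control kidneys, taken at nephrectomy, and 8 had undergone 20 min of ischemia, by clamping of the vessels of the kidney, followed by 24 h of reperfusion. The study's methods describe an earlier operation, at least 24 h before ischemia, that placed the clamp under anaesthesia. They describe removal of the right kidney and buprenorphine with it. No such earlier operation is described for the control kidneys, so its effects and those of ischemia cannot be told apart against control. The study set out to compare ischemia under anaesthesia with ischemia in awake animals, but in the labels of the 8 ischemic kidneys the title and the group field say opposite things. They are therefore called the A set (ISCH_ANESTH in the title, conscious in the group field) and the B set (ISCH_CONCIOUS in the title, anesthesia in the group field), 4 kidneys each, and no difference between them is assigned to anaesthesia. The labels also give the ischemia protocol to the control kidneys, which the study describes as not ischemic. Total counts lay between 15367342 and 44793350 per kidney, and a count of 3, taken as the floor, corresponded to 0.0670 to 0.195 CPM. Samples were whole pieces of kidney, so fewer cells of a type and less RNA per cell cannot be told apart in any of the values given here. Levels are of RNA, and neither protein nor respiration was measured in these files.

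The respiratory chain sits in the inner membrane of mitochondria. Complex I takes electrons from NADH and complex II from succinate, both pass them through ubiquinone to complex III, cytochrome c carries them to complex IV, where oxygen is reduced, and complex V, the ATP synthase, uses the proton gradient built by complexes I, III and IV to make ATP. Most subunits are encoded in the nucleus, but a few core subunits of complexes I, III, IV and V come from mitochondrial DNA, and the 2 sets of subunits have to be joined by assembly factors. The proximal tubule and the thick ascending limb of the kidney are packed with mitochondria, since they pay for salt reabsorption with ATP, and are among the first parts of the nephron to be injured by ischemia. The 13 genes of the chain encoded in mitochondrial DNA have 0 rows in the table and were not analysed here.

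Transcripts of all 5 complexes were lower in the ischemic kidneys. The summed level of the 69 members was 12893 to 13884 CPM in the control kidneys, 5994 to 7427 CPM in the A set and 6269 to 7441 CPM in the B set, so the highest ischemic kidney lay far below the lowest control kidney. In the control kidneys these genes held 1.33% of all counts, against 0.656% in the A set and 0.667% in the B set. With edgeR's quasi-likelihood test, adjusted over the 11664 genes tested, 32 of 69 members fell in the A set against control, where the share of all genes tested that fell was 11.7%. In the B set against control, 31 of 69 members fell, beside 11.9% of all genes tested. No member rose in either set, at the adjusted threshold of 0.05 in edgeR or in DESeq2, where 10.5% and 10.9% of all genes tested rose in edgeR. Without adjustment 38 members in the A set and 37 in the B set had p below 0.05, all of them lower, beside 16.1% and 16.7% of all genes tested that were lower at that p. The 2 comparisons share the 4 control kidneys.

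The median log2 fold change of the members was -1.02 in the A set and -0.93 in the B set, beside -0.02 in either set over all genes tested. The fitted change was below 0 for 68 of 69 members in the A set and for 65 of 69 in the B set. All 4 ischemic kidneys lay below all 4 control kidneys, in CPM, for 34 members in the A set and 35 in the B set, while the shares of all genes tested with such a separation were 15.2% and 14.7%. An exact two-sided permutation test of CPM for a single gene can give no p below 0.0286 with 4 kidneys against 4, and these members reached that value, before any adjustment for the number of genes.

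What could be called depended on how well a gene was counted. Among the 39 members with a mean of at least 10 CPM, 31 fell in the A set and 30 in the B set, where 19.6% of the 6331 genes tested at that level fell in the A set and 19.6% in the B set. Of the 30 members below 10 CPM, 1 fell in each set, Atp5e in the A set and Ndufs8 in the B set, beside 2.48% and 2.78% of all genes tested below that level. The median SE of the log2 fold change was 0.23 for the better counted members and 0.74 for the others in the A set, so a change of the size seen in the first group would often not have been detectable in the second. The plot of fold changes by complex shows the narrow error bars at the top of each block and the wide ones at its foot.

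**Figure D1:**
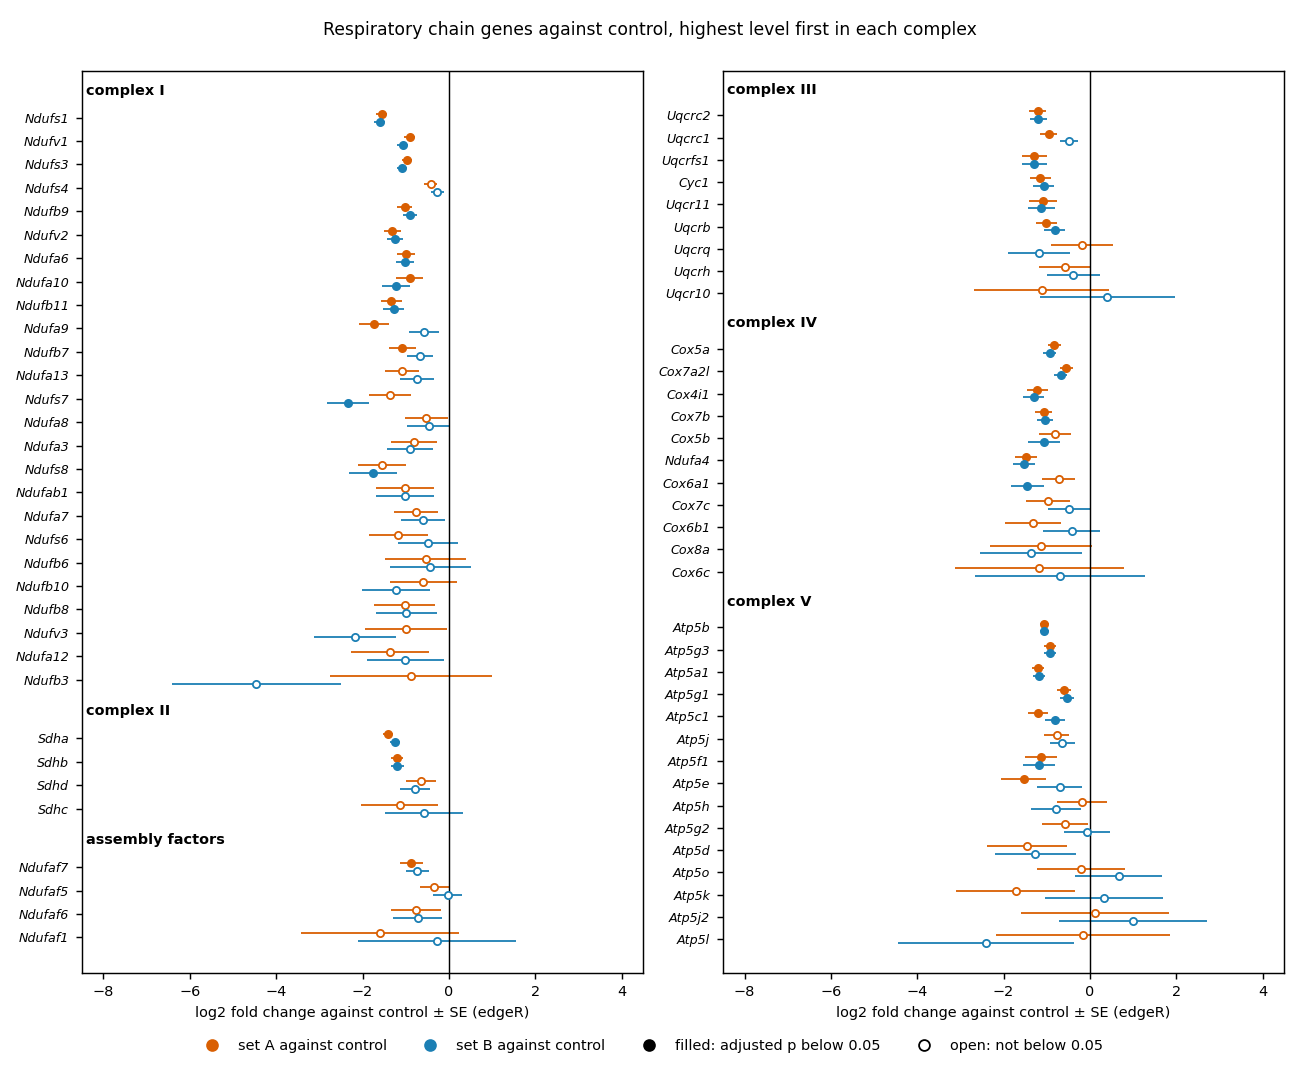
Log2 fold change against control (horizontal axis) of 68 of the 69 members, in the A set (orange) and the B set (blue), with bars of 1 SE from edgeR. Genes are ordered by level within each complex. Filled points have an adjusted p below 0.05, and the 31 filled points of the A set and 30 of the B set all lie left of 0.

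In complex I, 11 of 26 subunits fell in the A set and 11 in the B set, with a median log2 fold change of -1.02 in each. Counts of called genes here and for the complexes that follow stand beside 11.7% and 11.9% of all genes tested that fell. The best counted member of its core was Ndufs1, which encodes the large iron-sulfur subunit of the NADH-oxidising arm (chr1:63143596-63176833, minus strand of mm10). Its level was 844, 818, 860.1 and 835 CPM in the 4 control kidneys, 275, 349, 263 and 272 CPM in the A set and 339, 269, 264 and 252 CPM in the B set. The control kidneys were within a narrow band and all 8 ischemic kidneys were far below it. The log2 fold change of Ndufs1 was -1.56 (SE 0.13, adjusted p = 2.51e-08) in the A set and -1.60 (SE 0.13, adjusted p = 1.87e-08) in the B set.

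Ndufv1, the subunit that binds NADH and flavin (chr19:4007384-4012806, minus strand), went from 546, 629.8, 491 and 564 CPM to 247, 375, 292 and 293 CPM in the A set and 296, 239, 260.3 and 285 CPM in the B set, without overlap. The log2 fold change was -0.91 (SE 0.13, adjusted p = 3.37e-05) in the A set and -1.07 (SE 0.13, adjusted p = 5.48e-06) in the B set.

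Of the other core subunits of complex I, Ndufs3 and Ndufv2 fell in each set, while Ndufs7 and Ndufs8 fell in the B set and did not pass the threshold in the A set. Ndufs3, a subunit of the arm that reaches into the matrix, was at 441, 475, 452 and 462 CPM in control kidneys, 208, 237, 253 and 244 CPM in the A set and 247, 204, 212 and 217 CPM in the B set, with log2 fold changes of -0.98 (SE 0.11, adjusted p = 2.59e-06) and -1.08 (SE 0.11, adjusted p = 8.90e-07). The log2 fold change was -1.31 and -1.25 in sets A and B for Ndufv2, an iron-sulfur partner of Ndufv1. Ndufs7, which carries the last iron-sulfur centre before ubiquinone, was at 15.4, 35.8, 11.9 and 28.9 CPM in control kidneys, 5.15, 16.8, 5.76 and 8.92 CPM in the A set and 4.41, 1.55, 6.66 and 5.99 CPM in the B set. The B set lay wholly below the control kidneys and the A set overlapped them, and the log2 fold change was -1.36 (SE 0.49, adjusted p = 0.0580) in the A set and -2.34 (SE 0.49, adjusted p = 0.00216) in the B set. For Ndufs8, which also carries iron-sulfur centres close to ubiquinone, the values were -1.55 (SE 0.56, adjusted p = 0.0580) and -1.75 (SE 0.56, adjusted p = 0.0322), at levels of 1.61 to 17.4 CPM. The log2 difference of the B set from the A set was -0.98 (95% interval -2.02 to 0.06) for Ndufs7 and -0.20 (95% interval -1.37 to 0.97) for Ndufs8, so neither gene was shown to differ between the sets. In the A set, Ndufs7 passed under 7 and Ndufs8 under 4 of 19 alternative fits. The call of Ndufs8 in the B set was lost when any 1 of 5 kidneys was left out (edgeR adjusted p of 0.0589 to 0.102).

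Ndufs4 was the exception among the 16 subunits in the plot of levels by kidney, since it was called in neither set. It encodes an accessory subunit that holds the NADH-oxidising arm together, and is well known as a gene whose loss causes Leigh syndrome (chr13:114287795-114388258, minus strand). Its level was 266, 314, 317 and 280.1 CPM in control kidneys, 158, 268, 219 and 247 CPM in the A set and 255, 220.5, 223 and 296 CPM in the B set. Both ischemic sets overlapped the control kidneys, and the log2 fold change was -0.43 (SE 0.16, adjusted p = 0.0562) in the A set and -0.27 (SE 0.16, adjusted p = 0.257) in the B set, so neither passed the threshold. In the A set it passed under 5 of 19 alternative fits, among them those without kidney 2 of the A set (edgeR adjusted p = 0.0308), kidney 4 of the A set (0.0386) or kidney 4 of the B set (0.0372). The ratio of Ndufs4 to Ndufs1 counts within a kidney was 0.315 to 0.384 in control kidneys, 0.574 to 0.909 in the A set and 0.751 to 1.18 in the B set, and the control range did not overlap the others. This ratio was chosen after the values were known and was not tested.

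Among the accessory subunits of complex I, Ndufb9, Ndufa6, Ndufa10 and Ndufb11 fell in the A set and also in the B set, with log2 fold changes of -1.03 and -0.90 for Ndufb9, -0.91 and -1.23 for Ndufa10 and -1.33 and -1.28 for Ndufb11, the A set first. Ndufa6 was at 51.0 to 71.5 CPM in control kidneys, 25.4 to 36.6 CPM in the A set and 23.1 to 38.0 CPM in the B set. Ndufa9, which sits where the 2 arms of the complex meet, was at 21.3, 31.3, 26.0 and 24.7 CPM in control kidneys, 5.37, 6.90, 6.54 and 12.8 CPM in the A set and 11.5, 15.7, 14.7 and 28.8 CPM in the B set. The A set did not overlap the control kidneys and the B set did, its highest kidney lying within their range. The log2 fold change was -1.74 (SE 0.35, adjusted p = 0.00124) in the A set and -0.58 (SE 0.35, adjusted p = 0.284) in the B set. Ndufb7 fell in the A set, at -1.08 (SE 0.30, adjusted p = 0.0138), and had -0.67 (SE 0.30, adjusted p = 0.131) in the B set. The call of Ndufa10 in the A set was lost when any 1 of 7 kidneys was left out (edgeR adjusted p of 0.0602 to 0.153) and that of Ndufb7 without control kidney 4 (0.0537) or kidney 3 of the A set (0.0553). At the low end, Ndufb6 had log2 fold changes of -0.54 and -0.43 with an SE of 0.94 in either set, and Ndufb3, with 0 counts in 3 of the 4 kidneys of the B set, had -0.88 (SE 1.87, adjusted p = 0.843) and -4.46 (SE 1.95, adjusted p = 0.162). Neither of these passed the threshold.

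**Figure D2:**
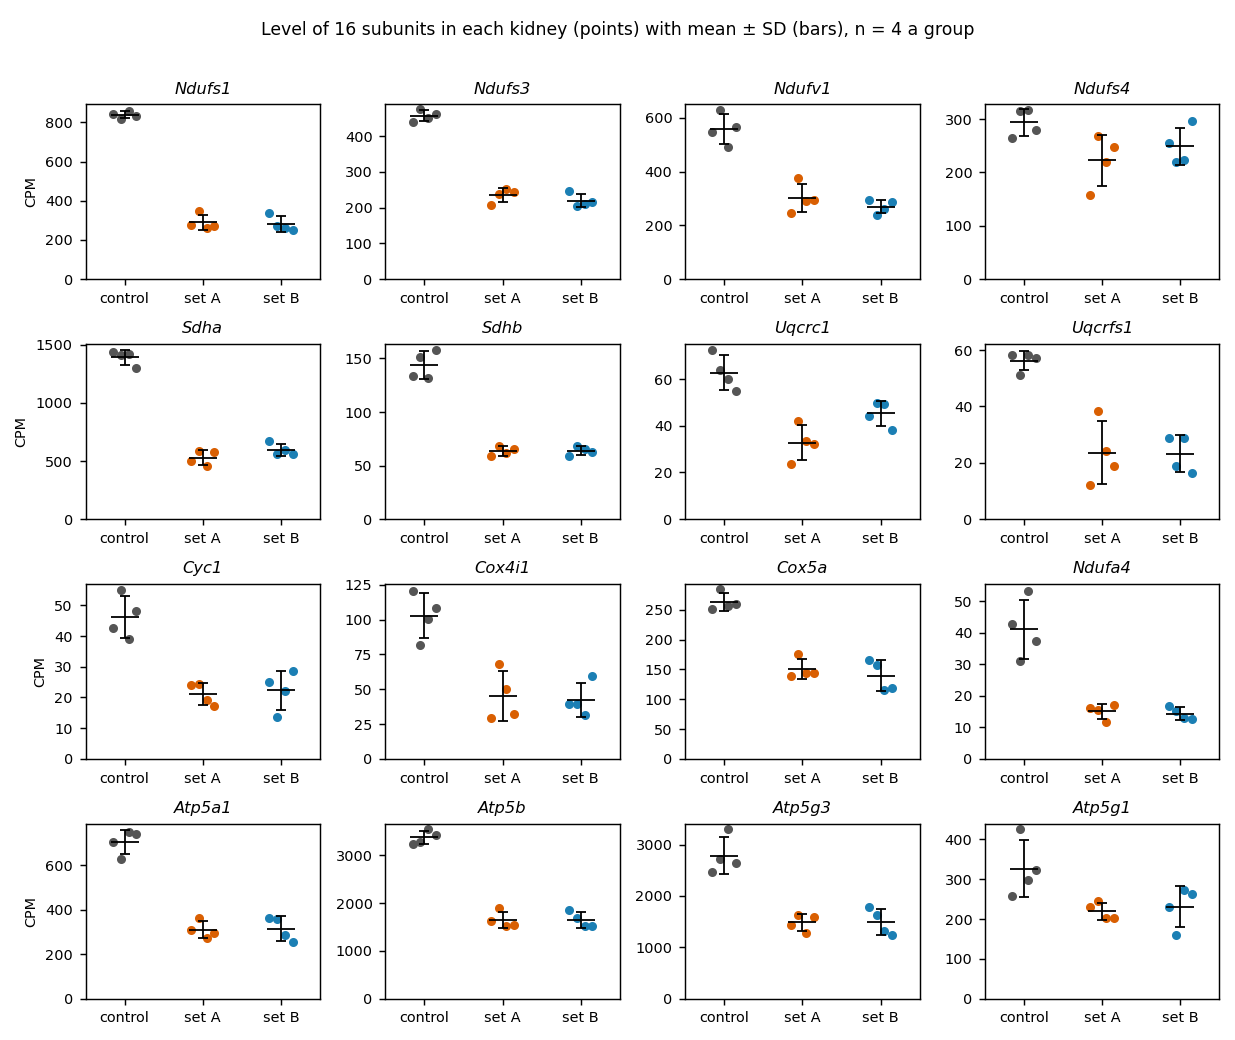
Level in CPM (vertical axis, from 0) of 16 subunits in each kidney, with points for single kidneys and bars for the mean ± SD of 4 kidneys per group. Ndufs1 falls from 818 to 860 CPM in control kidneys to at most 349 CPM in the A set and 339 CPM in the B set, while the groups overlap for Ndufs4.

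Complex II, succinate dehydrogenase, is also an enzyme of the citric acid cycle and is encoded wholly in the nucleus. Sdha, its flavoprotein and the site of succinate oxidation (chr13:74322254-74350280, minus strand), was at 1435, 1410.1, 1425 and 1298 CPM in control kidneys, 497, 587, 454 and 580.0 CPM in the A set and 669, 559, 592 and 562 CPM in the B set. All 8 ischemic kidneys lay well under the 4 control kidneys, with a log2 fold change of -1.42 (SE 0.11, adjusted p = 2.07e-08) in the A set and -1.25 (SE 0.11, adjusted p = 1.13e-07) in the B set. Sdhb, the iron-sulfur subunit (chr4:140961203-140979193, plus strand), was at 134, 152, 132 and 158 CPM in control kidneys, 58.6, 68.3, 61.6 and 65.7 CPM in the A set and 58.9, 68.6, 65.4 and 62.9 CPM in the B set. The 2 sets were nearly alike in level, and the log2 fold change was -1.20 (SE 0.14, adjusted p = 3.05e-06) and -1.19 (SE 0.14, adjusted p = 3.61e-06). The membrane anchors Sdhc and Sdhd were counted at 0.869 to 23.8 CPM, and neither passed the threshold, with log2 fold changes of -1.14 and -0.58 for Sdhc and -0.64 and -0.78 for Sdhd. When single kidneys were left out, the value of Sdhc in the B set ran from -2.14 to -0.27. The median over the 4 subunits was -1.17 in the A set and -0.99 in the B set.

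Complex III, the cytochrome bc1 complex, had 6 of 9 subunits lower in the A set and 5 in the B set, with medians of -1.09 and -1.08. Uqcrfs1, the Rieske iron-sulfur protein (chr13:30540308-30545362, minus strand), was at 58.3, 51.1, 58.3 and 57.2 CPM in control kidneys, 12.1, 38.5, 24.3 and 19.0 CPM in the A set and 28.7, 18.9, 28.9 and 16.5 CPM in the B set. The ischemic kidneys spread widely, from 12.1 to 38.5 CPM, yet none reached the control range, and the log2 fold change was -1.29 (SE 0.29, adjusted p = 0.00285) in the A set and -1.29 (SE 0.29, adjusted p = 0.00279) in the B set. Cyc1, cytochrome c1 (chr15:76343523-76346260, plus strand), was at 42.5, 54.8, 39.0 and 48.3 CPM in control kidneys, 24.0, 24.5, 19.1 and 17.1 CPM in the A set and 24.9, 13.6, 22.1 and 28.6 CPM in the B set. Its groups did not overlap either, with log2 fold changes of -1.15 (SE 0.25, adjusted p = 0.00176) and -1.08 (SE 0.25, adjusted p = 0.00310).

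The 2 core proteins of complex III, relatives of a processing peptidase that form its matrix-side bulk, were both well counted. Uqcrc2 fell in each set, with log2 fold changes of -1.21 (SE 0.20, adjusted p = 0.000134) and -1.20 (SE 0.20, adjusted p = 0.000153). Uqcrc1 (chr9:108936633-108949623, plus strand) was at 72.6, 64.0, 60.2 and 54.8 CPM in control kidneys, 23.6, 42.1, 33.5 and 32.2 CPM in the A set and 44.2, 49.9, 49.4 and 38.2 CPM in the B set. Both sets lay below the control range, but only the A set passed the adjusted threshold, with -0.96 (SE 0.20, adjusted p = 0.00136), against -0.49 (SE 0.20, adjusted p = 0.0910) in the B set. Of the small subunits, Uqcr11 and Uqcrb fell in the A set and in the B set, with log2 fold changes of -1.09 and -1.13 and -1.02 and -0.82. Without control kidney 4 the edgeR adjusted p of Uqcr11 was 0.0628 in the A set, and without control kidney 3 that of Uqcrb was 0.0896 in the B set. Uqcrq, Uqcrh and Uqcr10, with means of 5.55, 5.34 and 1.79 CPM, did not pass the threshold, and Uqcr10 had opposite signs, -1.12 and 0.39, with SEs of 1.57 and 1.56.

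Complex IV, cytochrome c oxidase, had 5 of 11 nuclear-encoded genes lower in the A set and 7 in the B set, with medians of -1.08 and -1.04. Cox4i1, the common form of the subunit around which assembly of the nuclear part begins (chr8:120668222-120674207, plus strand), was at 121, 81.8, 101 and 108 CPM in control kidneys, 29.1, 68.1, 50.2 and 32.5 CPM in the A set and 39.3, 39.1, 31.6 and 59.7 CPM in the B set. No ischemic kidney reached the control range, and the log2 fold change was -1.22 (SE 0.25, adjusted p = 0.00115) in the A set and -1.30 (SE 0.25, adjusted p = 0.000655) in the B set. Cox5a, its partner in assembly (chr9:57521274-57532426, plus strand), was at 251, 285, 256 and 259 CPM in control kidneys, 139, 176, 144 and 144 CPM in the A set and 166, 157, 115 and 119.7 CPM in the B set. Its log2 fold changes were -0.83 (SE 0.15, adjusted p = 0.000278) and -0.93 (SE 0.15, adjusted p = 8.39e-05), again without overlap. Ndufa4 (chr6:11900292-11907497, minus strand) was at 42.7, 31.2, 53.4 and 37.5 CPM in control kidneys, 16.1, 15.5, 11.8 and 16.9 CPM in the A set and 16.8, 15.2, 13.0 and 12.6 CPM in the B set, with log2 fold changes of -1.47 (SE 0.26, adjusted p = 0.000272) and -1.54 (SE 0.26, adjusted p = 0.000182), the lowest in the complex.

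Cox7a2l had the smallest fall among the genes of complex IV that passed the threshold in the A set. Its levels were 98.1, 82.7, 107 and 97.1 CPM in control kidneys, 63.9, 65.6, 67.1 and 70.1 CPM in the A set and 62.4, 64.1, 54.7 and 62.8 CPM in the B set. The spread within each group was small, the ischemic kidneys did not reach the control range, and the log2 fold change was -0.55 (SE 0.15, adjusted p = 0.0114) in the A set and -0.68 (SE 0.15, adjusted p = 0.00247) in the B set. Cox7b fell to log2 fold changes of -1.08 and -1.04. Cox5b and Cox6a1 fell in the B set, at -1.06 (SE 0.37, adjusted p = 0.0479) and -1.45 (SE 0.38, adjusted p = 0.00964), and had -0.82 (SE 0.37, adjusted p = 0.135) and -0.72 (SE 0.38, adjusted p = 0.216) in the A set. The call of Cox5b was lost when any 1 of 7 kidneys was left out (edgeR adjusted p of 0.0517 to 0.133). Cox7c, Cox6b1, Cox8a and Cox6c did not pass the threshold in either set.

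The isoforms of complex IV and complex I that belong to other tissues or to hypoxia were looked up by name. The muscle and heart forms Cox6a2, Cox7a1 and Cox8b, the testis form Cox6b2 and Cox4i2, a form known from lung and raised by low oxygen in some cells, had 0 counts in all 12 kidneys, which for counting error alone allows up to 0.0670 to 0.195 CPM depending on the kidney. These genes are short, and Ndufc1 and Ndufs5, general subunits of complex I, were also at 0 in all 12 kidneys, so a 0 in this table is not read as absence of the transcript. Ndufa4l2, a gene known to be induced by hypoxia, had a mean of 0.406 CPM, with counts in 4 of 12 kidneys and none above 91. No difference was called for it by edgeR (adjusted p = 0.888 in the A set and 0.126 in the B set).

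Complex V, ATP synthase, had the highest summed level of the complexes, 7375 ± 492 CPM (SD, n = 4) in control kidneys, 3756 ± 366 CPM in the A set and 3805 ± 421 CPM in the B set. It had 7 of 15 subunits lower in the A set and 6 in the B set, with medians of -0.93 and -0.80. Atp5b, the catalytic beta subunit (chr10:128083273-128090391, plus strand), was the most counted of all members, at 3232, 3285, 3551 and 3429 CPM in control kidneys, 1625, 1893, 1517 and 1552 CPM in the A set and 1865, 1681, 1526 and 1529 CPM in the B set. The sets were alike in level, far from the control kidneys, with log2 fold changes of -1.06 (SE 0.11, adjusted p = 3.18e-07) and -1.05 (SE 0.11, adjusted p = 3.56e-07). Atp5a1, the alpha subunit, which alternates with beta in the catalytic head, was at 705, 626, 747 and 739 CPM in control kidneys, 309, 361, 275 and 296 CPM in the A set and 364, 358, 287 and 253 CPM in the B set, and its log2 fold change was -1.21 (SE 0.14, adjusted p = 2.00e-06) and -1.18 (SE 0.14, adjusted p = 2.88e-06). The ratio of Atp5a1 to Atp5b counts in a kidney was 0.190 to 0.218 in control kidneys, 0.181 to 0.191 in the A set and 0.165 to 0.213 in the B set, so these ranges overlapped.

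The c subunit, of which a ring turns in the membrane, is encoded by 3 genes whose mature proteins are the same. Atp5g3 (chr2:73908447-73911326, minus strand) was at 2474, 2711, 3297 and 2644 CPM in control kidneys, 1444, 1629, 1279.7 and 1584 CPM in the A set and 1778, 1635, 1326 and 1235 CPM in the B set, with log2 fold changes of -0.93 (SE 0.14, adjusted p = 3.60e-05) and -0.92 (SE 0.14, adjusted p = 4.36e-05). Atp5g1 (chr11:96068852-96075670, minus strand) was at 259, 425, 298 and 324 CPM in control kidneys, 230.1, 244, 202 and 203 CPM in the A set and 231, 160.2, 272 and 262 CPM in the B set. Its log2 fold changes were -0.60 (SE 0.17, adjusted p = 0.0129) and -0.53 (SE 0.17, adjusted p = 0.0275), and the B set overlapped the control kidneys. Without control kidney 2 the edgeR adjusted p of Atp5g1 was 0.0738 in the A set and 0.122 in the B set, and without kidney 2 of the B set it was 0.0841 in the B set, where the call was also lost in a fit of the 2 groups alone (0.0553) and with the replicate number as a block (0.0526). Atp5g2 did not pass the threshold, with a mean of 6.82 CPM. Atp5g3 gave 89.2% ± 2.34 (SD, n = 4) of the c subunit counts in control kidneys, 86.8% ± 1.11 in the A set and 85.9% ± 4.33 in the B set. The ranges of single kidneys overlapped, at 86.1% to 91.6%, 85.9% to 88.4% and 81.8% to 90.7% in the same order.

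Of the other ATP synthase subunits, Atp5c1 (the gamma subunit, the central axle) and Atp5f1 (subunit b of the outer stalk) fell in both sets, with log2 fold changes of -1.20 and -0.81 and -1.14 and -1.18. Atp5e, the epsilon subunit at the foot of the axle, fell in the A set, at -1.53 (SE 0.52, adjusted p = 0.0433), and had -0.70 (SE 0.52, adjusted p = 0.410) in the B set. Among these the call of Atp5e was lost when any 1 of 8 kidneys was left out (edgeR adjusted p of 0.0502 to 0.118). That of Atp5f1 was lost without any 1 of 6 kidneys in the A set (0.0593 to 0.0943) and of 5 in the B set (0.0501 to 0.0741). That of Atp5c1 in the B set was lost without control kidney 2 (0.0541). The named subunits at the low end did not pass the threshold: Atp5d, the delta subunit, had log2 fold changes of -1.46 and -1.26, Atp5l (subunit g) -0.16 and -2.41, Atp5o (the OSCP of the outer stalk) -0.21 and 0.66 and Atp5j2 (subunit f) 0.11 and 0.99. Their SEs ran from 0.93 to 2.04. When single kidneys were left out, the value of Atp5l in the B set ran from -8.41 to -1.47, with an edgeR adjusted p of at least 0.0527. For Atp5l, 61.4% of the 100-base windows of its transcripts also occur in annotated transcripts of 5 other genes, all of them pseudogenes, so its counts are uncertain. The next largest shares of such windows among members were 34.7% for Atp5g2, 21.7% for Atp5h, 19.9% for Ndufs3 and 17.7% for Ndufa12.

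Of the 4 Ndufaf assembly factors 1 fell in the A set and 0 in the B set, with medians of -0.82 and -0.50. In the B set 1 was lower at an unadjusted p below 0.05, beside 16.7% of all genes tested. DESeq2 called the same gene there, Ndufaf7. Ndufaf7, a methyltransferase needed for the assembly of complex I, was at 29.2, 33.5, 40.0 and 24.7 CPM in control kidneys, 18.3, 14.2, 20.7 and 17.5 CPM in the A set and 20.9, 15.3, 16.2 and 25.5 CPM in the B set, with log2 fold changes of -0.88 (SE 0.26, adjusted p = 0.0214) and -0.74 (SE 0.26, adjusted p = 0.0526). The A set lay below the control range and the B set overlapped it. The call in the A set was lost without control kidney 2 (edgeR adjusted p = 0.0575), control kidney 3 (0.0855), kidney 1 of the A set (0.0504) or kidney 2 of the A set (0.0630). Ndufaf5, an assembly factor that hydroxylates Ndufs7, had log2 fold changes of -0.34 and -0.03, Ndufaf6 -0.76 and -0.73 and Ndufaf1 -1.60 and -0.27, none past the threshold. The summed level of the 4 factors was 48.6 to 79.4 CPM in control kidneys, 31.7 to 39.98 CPM in the A set and 39.6 to 47.8 CPM in the B set. Among those of complex I outside the Ndufaf symbols, 1 of 6 tested fell in the A set, Acad9, with -3.57 (SE 1.12, adjusted p = 0.0421), and none in the B set, where 2 had an unadjusted p below 0.05, Foxred1 lower and Atp5sl, with 0 counts in all control kidneys, higher. In the A set 2 of the 6 had such a p as well. Of the 11664 genes tested, 3678 in the A set and 3812 in the B set had it, in either direction. Of the 23 tested factors of complexes II to V, 8.70% fell in the A set and 4.35% in the B set, beside 11.7% and 11.9% of all genes tested. Lrpprc, a regulator of mitochondrial messenger RNA, fell in the A set at -0.62 (SE 0.22, adjusted p = 0.0447) and in the B set at -0.62 (SE 0.22, adjusted p = 0.0464), and Cox15, needed for heme a, fell in the A set at -0.95 (SE 0.32, adjusted p = 0.0360). Each call of Acad9, Lrpprc and Cox15 was lost when any 1 of 7 kidneys was left out, with edgeR adjusted p of up to 0.100 for Acad9, 0.162 and 0.131 for Lrpprc in the A and B sets and 0.0991 for Cox15.

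The plot of medians by complex places each kidney on its own. Over the 39 members of at least 10 CPM, the median log2 difference from the control mean was between -0.05 and 0.07 in the control kidneys, between -1.11 and -0.76 in the A set and between -1.06 and -0.90 in the B set. Kidney 2 of the A set was the least lowered of the 8. In complex I the kidneys of the A set ran from -1.33 to -0.90 and those of the B set from -1.12 to -0.92. In complex II they ran from -1.28 to -1.06 and from -1.18 to -1.06. Among the 5 complexes the widest range in the B set was that of complex IV, from -1.57 to -0.67, while in the A set complex III, from -1.25 to -0.64, and complex IV, from -1.18 to -0.58, spread about as widely as each other. No ischemic kidney came within the range of the control kidneys for any of the 5 complexes.

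**Figure D3:**
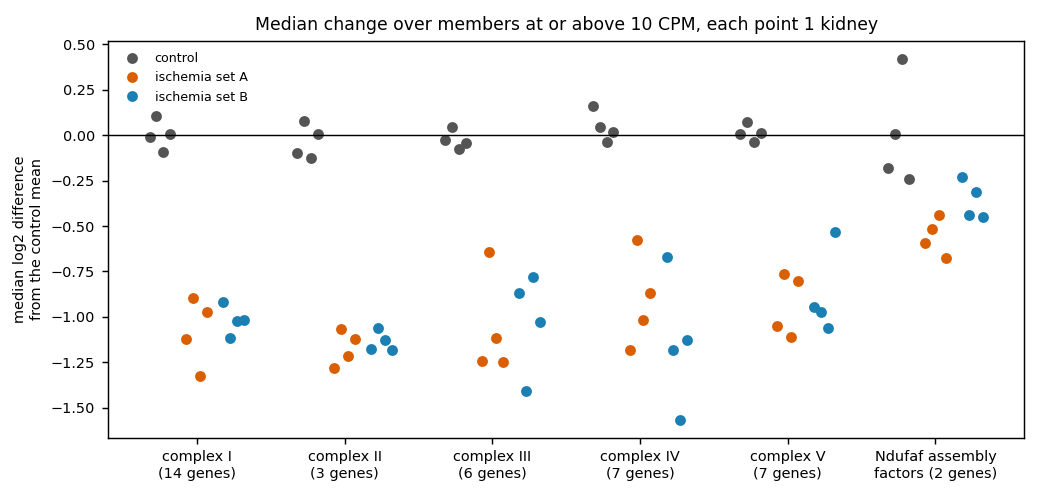
Median over the members of each complex with at least 10 CPM of the log2 difference from the mean of the control kidneys (vertical axis), with 1 point per kidney in control (grey), the A set (orange) and the B set (blue). The ischemic kidneys lie between -1.57 and -0.53 for complexes I to V, and the 2 Ndufaf genes at this level lie between -0.67 and -0.23.

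The B set was compared directly with the A set. Of the 69 members, 0 passed the adjusted threshold in edgeR, and 0 in DESeq2, where 0.00857% of all genes tested did in edgeR. The median log2 fold change of the B set against the A set was 0.05. At an unadjusted p below 0.05 there were 2 members, Ndufa9 and Uqcrc1, beside 5.03% of all genes tested, each higher in the B set than in the A set. Ndufa9 differed by 1.15 (95% interval 0.42 to 1.89) and Uqcrc1 by 0.47 (95% interval 0.05 to 0.89), with edgeR adjusted p of 0.93 and 0.962, and Ndufa9 overlapped between the sets, as did Uqcrc1. In 1 member, Atp5k, a small membrane subunit of ATP synthase, all kidneys of the B set lay above those of the A set, as in 1.4% of all genes tested. Its levels were 0.128, 0, 0.737 and 1.43 CPM in the A set and 2.34, 3.17, 1.63 and 2.41 CPM in the B set, and the log2 difference was 2.05 (95% interval -0.83 to 4.93). For some of the most counted members the interval of the difference was narrower. It was -0.04 (95% interval -0.30 to 0.22) for Ndufs1, 0.17 (95% interval -0.06 to 0.41) for Sdha, -0.10 (95% interval -0.41 to 0.20) for Cox5a and 0.01 (95% interval -0.21 to 0.23) for Atp5b on the log2 scale. For poorly counted members it was too wide to tell, as with -2.25 (95% interval -6.52 to 2.02) for Atp5l.

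The levels of subunits of 1 complex were very unequal in these files. Per kilobase of transcript, the mean control level was 319.6 CPM for Ndufs1 and 437 for Ndufs3, but 14.4 for Ndufs8 and 4.35 for Ndufab1, all of complex I. In complex II it was 480.0 CPM per kilobase for Sdha and 2.65 for Sdhc. Shorter genes had lower levels even per kilobase. The median was 6.49 CPM per kilobase for the 40 genes with a transcript under 700 nt, 18.1 for the 30 genes from 700 to 1400 nt and 30.4 for the 21 longer ones, taking 91 of the 93 genes, without Atp5s and Atp5sl, which are not subunits of the synthase. Spearman's rho between length and control level per kilobase was 0.28 over these 91 genes, against -0.12 over 10966 genes tested, as a description across genes of the same libraries, which are not independent replicates.

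**Figure D4:**
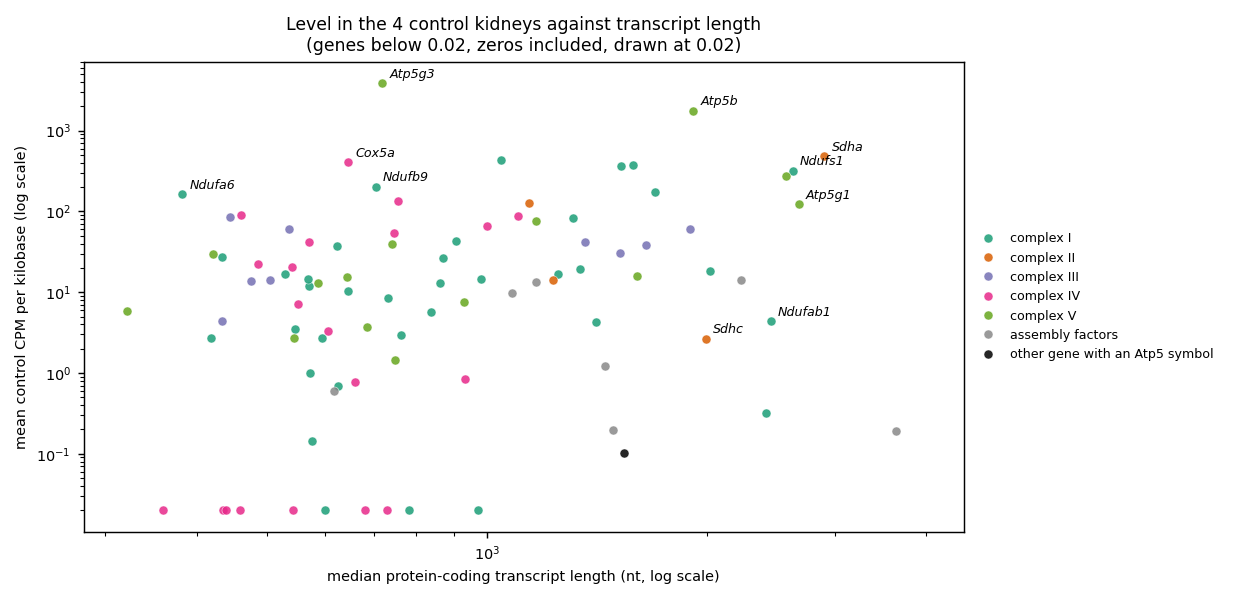
Mean level in the 4 control kidneys per kilobase of transcript (vertical, log scale) against median transcript length (horizontal, log scale) for these 91 genes, coloured by complex, and for Atp5s (black). Many short genes lie at the foot of the plot, while Atp5g3 and Cox5a are short and high.

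In all, 24 of the 93 genes lay below the minimum of 1 CPM, and 15 of these had transcripts under 700 nt. Counts were 0 in all kidneys for 9 of them, Ndufc1, Ndufs5, Cox4i2, Cox6a2, Cox6b2, Cox7a1, Cox7b2, Cox8b and Cox8c. Ndufc1 and Ndufs5 are not tissue isoforms but general subunits of complex I, and Cox7a2, the general form of its subunit, was counted in 3 of 12 kidneys. The other 14 counted below the minimum were Atp5s, Atp5sl, Ndufa1, Ndufa2, Ndufa4l2, Ndufa5, Ndufa11, Ndufaf2, Ndufaf3, Ndufaf4, Ndufb2, Ndufb4, Ndufb5 and Ndufc2. Of the 24, 7 passed the count filter, and 1 of them was called, Ndufa11 in the A set (edgeR adjusted p = 0.0196), whose counts were at most 87 and whose call was lost without control kidney 3 (adjusted p = 0.0506) or kidney 3 of the A set (0.0536), and with the replicate number as a block (0.0541). Just inside the minimum were Atp5l at 1.04 CPM and Ndufb3 at 1.19 CPM, and just outside were Ndufa1 at 0.909 CPM and Ndufa5 at 0.894 CPM. All 69 members passed the count filter.

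Genes that work next to the chain or encode other mitochondrial proteins were read for comparison, as levels of RNA and not of mitochondrial content. Cycs, cytochrome c itself, was at 37.5, 29.6, 31.8 and 23.8 CPM in control kidneys, 15.1, 35.2, 20.3 and 17.6 CPM in the A set and 27.5, 19.2, 17.9 and 26.9 CPM in the B set, and did not pass the threshold, with log2 fold changes of -0.50 (SE 0.28, adjusted p = 0.258) and -0.44 (SE 0.29, adjusted p = 0.326). Cs, citrate synthase of the matrix, was at 304, 284, 293 and 307 CPM in control kidneys, 294, 342, 297 and 282 CPM in the A set and 291, 265, 305 and 282 CPM in the B set. These ranges overlapped throughout, and its log2 fold change was 0.01 (SE 0.11, adjusted p = 0.980) and -0.08 (SE 0.11, adjusted p = 0.708). A list of 16 tested genes covered outer membrane, import and matrix proteins, and also proteins of the cristae junctions and prohibitins. Of these, 6 fell in each set (37.5%, beside 11.7% and 11.9% of all genes tested), the median log2 fold changes being -0.27 and -0.19. The 6 in each set were Vdac1, the outer membrane channel, Hspd1 and Hspa9, chaperones, Immt and Chchd3, of the cristae junctions, and Phb, prohibitin. Their log2 fold changes were -1.28 and -1.08 for Vdac1, -0.85 and -1.02 for Hspd1, -0.43 and -0.49 for Hspa9, -0.82 and -0.68 for Immt, -0.62 and -0.49 for Chchd3 and -1.70 and -1.29 for Phb. The call of Hspa9 was lost in the A set when any 1 of 7 kidneys was left out (edgeR adjusted p of up to 0.148), and in the B set without control kidney 1 (0.0521). Tomm20, Tomm22, Tomm40 and Tomm70a, of the import complex of the outer membrane, and the channels Vdac2 and Vdac3 did not pass the threshold.

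Nuclear genes of the chain are known to be driven by the factors NRF1 and GABP (an ETS factor) and by the estrogen-related receptors (ERR), with the coactivators PGC-1α (Ppargc1a), PGC-1β (Ppargc1b) and PRC (Pprc1). In RefSeq promoter windows of GRCm38.p6, from 250 bases before to 50 after the start of the gene, 57 of 69 members had a window. The letters GCGCATGC of an NRF1 site stood on either strand in 10 of 57 members (17.5%) and in 3.05% of 27025 genes. The ETS core CCGGAAG stood in 17 of 57 (29.8%) and in 9.93% of genes, and the ERR site AAGGTCA in 5 of 57 (8.77%) and in 5.38% of genes. At least 1 of the 3 stood in 23 of 57 members (40.4%) and in 17.2% of genes. The 27025 genes are all those with a window, whether or not they were expressed in these kidneys. The members were not compared with other expressed genes in this respect. A match of letters is not a site shown to be bound. Of the 19 members with a window that were called lower in each set, 15.8% held the NRF1 letters, 15.8% the ETS core and 5.26% the ERR site, Ndufs3, Ndufa6, Sdhb and Uqcr11 among those with a match. Ndufv1, Ndufv2, Ndufb11, Cox5a and Atp5b, also called lower in each set, held none of the 3, as did Ndufs4, which was not called. To show each motif in place, 5 windows are given 5′ to 3′ on the strand of the gene, with matches in capitals. Atp5g3 (chr2:73911277-73911576, minus strand) holds an ERR site read on the other strand, Sdhb (chr4:140961021-140961320, plus strand) an NRF1 and an ETS match, Uqcrc1 (chr9:108936398-108936697, plus strand) an NRF1 match on each strand, overlapping each other, Ndufs3 (chr2:90904672-90904971, minus strand) 2 ETS matches, and Ndufs4 lies at chr13:114388045-114388344 (minus strand).
Atp5g3: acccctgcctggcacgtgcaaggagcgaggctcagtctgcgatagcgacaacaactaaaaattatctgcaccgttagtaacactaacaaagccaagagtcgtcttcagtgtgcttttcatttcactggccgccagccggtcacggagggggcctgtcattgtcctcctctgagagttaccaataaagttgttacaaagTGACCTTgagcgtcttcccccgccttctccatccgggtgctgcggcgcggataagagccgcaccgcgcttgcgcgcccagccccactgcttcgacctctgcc
Sdhb: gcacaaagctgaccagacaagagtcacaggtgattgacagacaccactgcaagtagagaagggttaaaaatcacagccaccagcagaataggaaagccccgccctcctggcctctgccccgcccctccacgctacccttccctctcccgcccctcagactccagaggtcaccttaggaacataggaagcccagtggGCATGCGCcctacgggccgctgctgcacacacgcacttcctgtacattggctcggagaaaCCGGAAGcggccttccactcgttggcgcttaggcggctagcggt
Uqcrc1: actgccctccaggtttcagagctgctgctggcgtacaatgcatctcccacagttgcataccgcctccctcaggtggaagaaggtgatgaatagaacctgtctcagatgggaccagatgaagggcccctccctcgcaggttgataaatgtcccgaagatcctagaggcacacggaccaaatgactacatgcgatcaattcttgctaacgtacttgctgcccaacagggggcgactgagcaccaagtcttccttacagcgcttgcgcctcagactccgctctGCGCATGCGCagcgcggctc
Ndufs3: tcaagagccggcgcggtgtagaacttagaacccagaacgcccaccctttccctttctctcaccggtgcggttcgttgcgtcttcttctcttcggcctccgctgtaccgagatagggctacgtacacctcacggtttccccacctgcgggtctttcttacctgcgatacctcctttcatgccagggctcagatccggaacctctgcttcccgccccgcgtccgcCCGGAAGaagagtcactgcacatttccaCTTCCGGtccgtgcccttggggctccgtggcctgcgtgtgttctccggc
Ndufs4: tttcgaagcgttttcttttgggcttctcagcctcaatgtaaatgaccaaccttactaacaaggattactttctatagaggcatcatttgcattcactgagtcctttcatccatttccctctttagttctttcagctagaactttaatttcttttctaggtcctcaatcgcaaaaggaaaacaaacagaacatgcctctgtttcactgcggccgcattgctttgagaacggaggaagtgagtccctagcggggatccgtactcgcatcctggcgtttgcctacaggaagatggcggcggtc

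Among the coactivators and receptors, Ppargc1a, Esrra and Esrrg fell in each set and Pprc1 rose, while Nrf1 and Gabpa were not called. Ppargc1a was at 429, 361, 422 and 453 CPM in control kidneys, 163, 155, 166 and 270.4 CPM in the A set and 193, 187, 194 and 366 CPM in the B set. Only kidney 4 of the B set came into the control range, and the log2 fold change was -1.16 (SE 0.21, adjusted p = 0.000317) in the A set and -0.85 (SE 0.21, adjusted p = 0.00468) in the B set. Esrra, which encodes ERRα, was at 114, 91.3, 58.9 and 109 CPM in control kidneys, 31.9, 36.0, 30.9 and 33.2 CPM in the A set and 29.0, 34.8, 26.7 and 62.2 CPM in the B set, again with kidney 4 of the B set in the control range, and with log2 fold changes of -1.52 (SE 0.25, adjusted p = 0.000150) and -1.31 (SE 0.25, adjusted p = 0.000608). Esrrg (ERRγ), at 229, 214, 215 and 231 CPM in control kidneys, 90.9, 92.2, 118 and 100.2 CPM in the A set and 131, 122, 105 and 168 CPM in the B set, had log2 fold changes of -1.17 (SE 0.15, adjusted p = 6.58e-06) and -0.78 (SE 0.15, adjusted p = 0.000531). Here no ischemic kidney reached the control range.

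Pprc1 was the only gene of the list that rose. It was at 13.7, 18.6, 15.8 and 16.6 CPM in control kidneys, 50.2, 41.4, 54.2 and 45.1 CPM in the A set and 57.4, 36.5, 41.0 and 50.8 CPM in the B set, with every ischemic kidney above every control kidney and log2 fold changes of 1.53 (SE 0.21, adjusted p = 2.19e-05) and 1.49 (SE 0.21, adjusted p = 3.01e-05). Esrrb (ERRβ) fell in the A set, -1.20 (SE 0.40, adjusted p = 0.0401), and had -1.10 (SE 0.40, adjusted p = 0.0594) in the B set, and Ppargc1b fell in the B set, -1.57 (SE 0.49, adjusted p = 0.0282), and had -0.96 (SE 0.49, adjusted p = 0.197) in the A set. The call of Esrrb was lost when any 1 of 5 kidneys was left out (edgeR adjusted p of 0.0602 to 0.209) and that of Ppargc1b when any 1 of 4 was (0.0608 to 0.136). For Nrf1 the log2 fold changes were 0.25 (SE 0.18, adjusted p = 0.423) and 0.34 (SE 0.18, adjusted p = 0.219), for Gabpa -0.41 (SE 0.19, adjusted p = 0.147) and -0.36 (SE 0.19, adjusted p = 0.211), and for Yy1 -0.04 (SE 0.15, adjusted p = 0.916) and -0.29 (SE 0.15, adjusted p = 0.207). Tfam, the main packaging and transcription factor of mitochondrial DNA, was counted at no more than 3.81 CPM in any kidney and did not pass the threshold. Of 14 regulators tested, 4 fell and 1 rose in each set, where 11.7% and 11.9% of all genes tested fell and 10.5% and 10.9% rose.

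**Figure D5:**
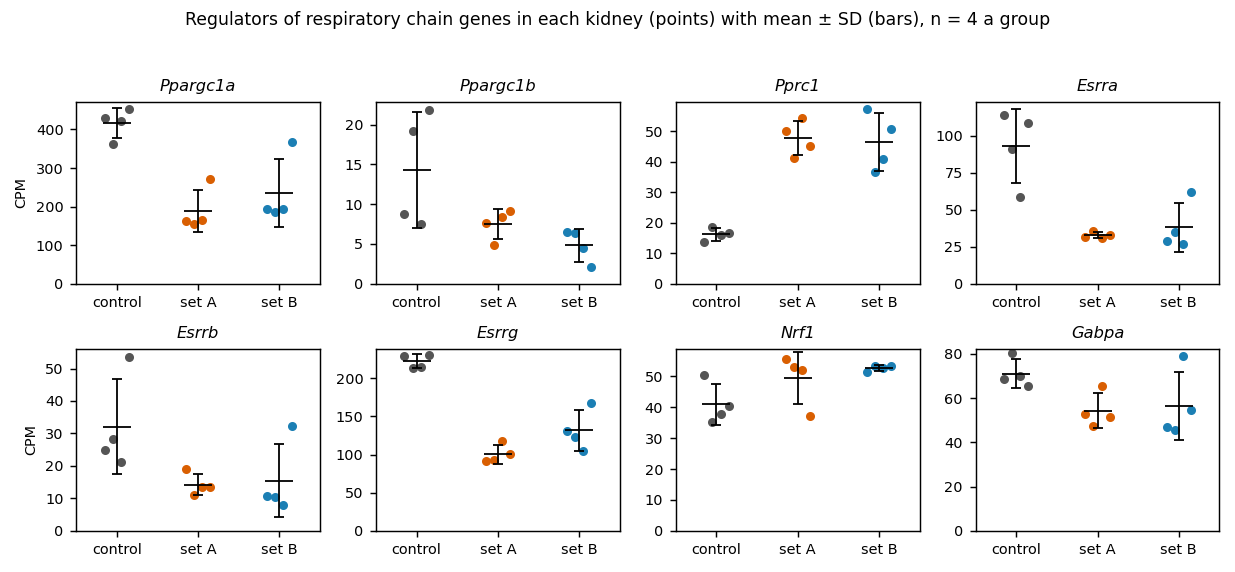
Level in CPM (vertical axis, from 0) of 8 regulators of respiratory chain genes in each kidney, with points for single kidneys and bars for the mean ± SD of 4 kidneys per group. Ppargc1a, Esrra and Esrrg are lower in the ischemic sets, Pprc1 is higher, and Nrf1 and Gabpa did not pass the test.

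The markers of the proximal tubule fell as a group, and those of other cell types differed from list to list. All 9 proximal tubule markers fell in the A set and all 9 in the B set, with median log2 fold changes of -2.74 and -2.93, and their summed level was 6842 to 7688 CPM in control kidneys, 731 to 1368 CPM in the A set and 443 to 1396 CPM in the B set. The chain's medians were -1.02 and -0.93. Counts of called genes in the short lists that follow stand beside 11.7% and 11.9% of all genes tested that fell and 10.5% and 10.9% that rose, and lists of so few genes were not tested against these shares. Of 5 thick ascending limb markers, 2 fell in each set, and their sum went from 1659 to 1779 CPM to 299.7 to 393 CPM in the A set and 290.5 to 800.1 CPM in the B set, mostly through the sodium transporter Slc12a1. Umod, of the same list, had a log2 fold change of 0.16 in the A set (edgeR adjusted p = 0.760). In the B set 2 of the 5 markers were above 0, the highest at 1.83, and none was called higher. Of 4 distal convoluted tubule markers, 1 fell in the A set and 2 in the B set (sums 1260.1 to 1825 CPM in control kidneys, 858 to 1360.3 in the A set and 762 to 1286 in the B set), and of 4 collecting duct markers, 2 and 1 (sums 156 to 229.5, 110.4 to 121 and 80.2 to 228 CPM). Of these calls, that of Pvalb in the B set was lost when any 1 of 8 kidneys was left out (edgeR adjusted p of 0.0508 to 0.0861), and that of Atp6v1b1 in the A set without control kidney 1 (0.0734). Among fibroblast genes the collagens Col1a1 and Col3a1 rose in each set, with sums over the 4 genes of 359 to 465 CPM in control kidneys, 870.1 to 2463 in the A set and 1131 to 2343 in the B set. Pdgfra, also tested, went the other way and was not called, with log2 fold changes of -0.41 and -0.53. Leukocyte markers summed to 4.12 to 8.07 CPM in control kidneys, 1.52 to 8.33 in the A set and 3.42 to 16.4 in the B set, with S100a8 at 0 in every kidney, and 1 of 4 tested, Cd3e, fell in each set, its counts being 0 in all ischemic kidneys and its calls being lost when any 1 of 8 kidneys in the A set and 9 in the B set was left out. Ptprc, Cd68 and Itgam were tested and not called. Of the 4 tested, 2 were above 0 in the A set and 3 in the B set. The median log2 fold changes were 0.18 and 1.23, with median SEs of 1.79 and 1.78. Endothelial markers (sums 51.0 to 60.3, 33.9 to 63.1 and 37.95 to 59.9 CPM) had 0 of 3 called by edgeR in each set, and at an unadjusted p below 0.05 there was 1 in the A set and 0 in the B set. The 4 adipocyte genes and the 2 of 4 listed red blood cell genes that have a row in the table were at 0 in all kidneys, and of 2 muscle genes tested edgeR called 0, with 0 in the A set and 1 in the B set at an unadjusted p below 0.05. Over all 11664 genes tested, 3678 in the A set and 3812 in the B set had an unadjusted p below 0.05, in either direction. The part of the change in tubule markers in the fall of the respiratory chain was not tested.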

How the data were processed

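RNA of 12 mouse kidneys was sequenced as single reads from stranded mRNA libraries. According to the study's methods and the submitters' processing notes, reads were checked with FastQC, mapped to mm10 with STAR and counted with HTSeq. The table that the authors deposited holds raw, not normalized, counts per gene. Tool versions, annotation release, strand setting and treatment of duplicates are not given in the sources used here, so overlapping and antisense genes could share reads. All of the columns were used.

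Counts of the whole table were analysed with edgeR 4.0.16 (R 4.3.3): default expression filter (minimum count 10, minimum total 15), which left 11664 genes, TMM scaling, and quasi-likelihood F-tests from a fit of the 3 groups to 12 kidneys, two-sided, with Benjamini-Hochberg adjustment over all genes tested and a threshold of 0.05. The procedure was tested on simulated counts. Total counts set the precision, and nothing says whether kidneys of a group were processed separately, so p-values measure the spread between these kidneys. CPM was computed from column sums, positions and transcript lengths from GENCODE M21, with pandas 2.3.3 and NumPy 2.4.6 under Python 3.11.15 (SciPy 1.17.1, matplotlib 3.10.9).

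The members and all gene lists were chosen with earlier results of these data known, so none is independent evidence. Named were core subunits, the 2 lowest and 2 highest members of each complex by mean fold change, members with an unadjusted p below 0.05 between the sets, tissue isoforms, and genes under the minimum. Others named were chosen after their values were seen. The values of 1 member are not reported here, but it is in all counts and sums. Alternatives were DESeq2 1.42.0, other scalings, no filter, fits of 2 groups, the replicate number as a block, a minimum of 10 CPM, leaving out each kidney and, added after seeing the data, thinning to the smallest total.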

Additional observations from a re-analysis of the deposited data

Results flagged for a closer look

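Among the 32 members named by the rule, each group of 4 kidneys was searched for a kidney standing apart from the other 3 by Dixon's criterion, and 7 of the 96 groups had such a kidney. Chance flags about 1 group in 20. In the A set, kidney 2 was high for Ndufs1, at 349.2 CPM beside 263 to 275 CPM in the other 3, and for Cox5a, at 175.9 CPM beside 139 to 144 CPM. The same kidney had the least lowered median of the members. Control kidney 2 was low for Uqcrfs1, at 51.13 CPM beside 57.2 to 58.3 CPM.

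In the B set, kidney 3 was high for Sdhc, at 10.81 CPM beside 0.869 to 1.74 CPM, and was the only one with counts for Ndufb3, at 0.3949 CPM. Kidney 2 of the B set was high for Atp5j2, at 6.52 CPM beside 0.296 to 1.11 CPM, and was the only one with counts for Atp5l, at 1.118 CPM. These 4 genes were all counted at low levels.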

How the results depend on the processing

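The number of members lower than control was 30 to 35 for A and 29 to 33 for B under DESeq2, other scalings, no filter, fits of 2 groups, the block and thinning to the smallest total (chosen after seeing the data), and 27 to 36 and 26 to 31 when single kidneys were left out. No member was called higher under any of them, and none differed between the sets. Whether kidneys with the same replicate number were paired is not known. Correlations of the deviations of same-numbered kidneys lay between -0.055 and 0.045. Differently numbered kidneys were not compared in this way, so these values do not decide it. With the replicate number as a block 33 members were called in the A set, and 30 in the B set. The block moved the median of all members in the B set to -1.01, and that of complex II in the B set against the A set to -0.051. With a minimum of 10 CPM the median in the B set was -1.05 over all members and -1.19 for complex II. Leaving out single kidneys gave medians of -1.02 to -0.90 in the B set, and of -0.024 to 0.14 in the B set against the A set.

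Of the called members, 25 of 32 in the A set and 25 of 31 in the B set kept their call under all 19 alternatives. The calls lost were those of Ndufa10, Ndufb7, Uqcr11, Atp5e, Atp5f1, Atp5g1 and Ndufaf7 in the A set and Ndufs8, Uqcrb, Cox5b, Atp5c1, Atp5f1 and Atp5g1 in the B set. Of the 69 members, no called one changed sign under these alternatives, and 4 and 6 that were not called did. In the A set, the log2 fold change of Atp5l was 0.070 with the block and -0.97 to 0.77 when kidneys were left out, that of Atp5o -0.74 to 0.28 and that of Atp5j2 -0.57 to 1.29. In the B set, Uqcr10 had -0.31 with the block and -0.52 to 0.84 with kidneys left out, Atp5o -0.47 to 1.12, Atp5j2 -0.69 to 2.15, Ndufaf1 -0.90 to 0.64 and Ndufaf5 -0.15 to 0.16. Ndufs4 in the A set passed the threshold under 5 alternatives, without kidney 2 or 4 of the A set or kidney 4 of the B set, with no filter (-0.45, adjusted p = 0.0375) and with the block (-0.44, adjusted p = 0.0486), and Ndufs7 in the A set with DESeq2, no filter, a fit of 2 groups and 4 fits without a kidney. Ndufaf7 and Ndufb3 in the B set passed with DESeq2 and under 2 and 1 fits without a kidney, and Ndufaf7 in the A set did not pass without 1 of 4 kidneys (adjusted p of 0.0504 to 0.0855). The cause was not tested. The alternative without mitochondrially encoded genes was not run, since the table has 0 such rows. Poorly counted subunits limit the counts and medians over all members, and the results for these subunits themselves.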
